A study of Mus musculus with 8 samples.

Results

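A set of 10 genes of the core pluripotency network were followed across mouse embryonic stem cells (mESCs), cells from the early embryo that can renew themselves and form all tissues of the body. The 10 genes were taken by symbol from a table with values for 52338 genes: the core transcription factors Pou5f1 (which encodes Oct4), Sox2 and Nanog, the protein partners Sall4, Zfp281, Nacc1 and Rif1, and the stem cell genes Utf1, Fbxo15 and Tdgf1. All 10 matched 1 row each, and all 10 had a mean of at least 1 FPKM over the libraries, the filter for testing, as did 14561 genes in all. FPKM stands for fragments per kilobase of transcript, scaled to a total per library. There were 8 libraries of total RNA in 4 groups of 2: untreated cells of genotype WT (control), and cells treated with sh-linc1393, sd-linc1393 or dd-linc1393 (sh, sd and dd). The target linc1393 is a long intergenic RNA without a coding role, studied here for the upkeep of pluripotency. No cell line or age is named in the labels, and the terms sd and dd are left unexplained there. The level of linc1393 itself was not analysed here, as no row could be assigned to it. The control cells were untreated, so the effect of linc1393 and the effect of giving a reagent cannot be told apart. Nothing in the labels ties the 2 libraries of a group to different cultures. The p-values therefore reflect the spread between libraries alone, and that spread may be technical. In bulk RNA, fewer cells that express a gene and less RNA per cell cannot be told apart.

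Oct4 and Sox2 bind DNA side by side at composite elements, and with Nanog they occupy the regulatory regions of each other's genes and of many other stem cell genes. The level of Oct4 is known to matter: too little turns mESCs towards trophoblast, and too much turns them towards primitive endoderm and mesoderm. Nanog, by contrast, is known to vary from cell to cell in culture. Sall4, Zfp281 and Nacc1 are nuclear proteins found in complexes with Oct4 or Nanog, and Rif1 is a chromatin protein of DNA replication timing and break repair that is abundant in mESCs. Utf1, Fbxo15 and the Nodal co-receptor gene Tdgf1 are textbook targets of Oct4 and Sox2.

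The sequences before the start sites of the 3 core factor genes are shown because these genes are each other's targets and because their values parted in the treated libraries. They come from RefSeq (GRCm38.p6), whose table held windows for 6 of the 10 genes. Each is on the plus strand and runs 5′ to 3′, and capitals mark matches, on either strand, to 5 searched words. These were the octamer ATGCAAAT, its first 7 bases ATGCAAA, the Sox word CATTGT, the GC box GGGCGG, and the composite of CATTGT, any 1 base and ATGCAAA. The composite contains the Sox word and the 7-base word. The Pou5f1 window is chr17:35505782-35506017, the Sox2 window chr3:34649745-34649994 and the Nanog window chr6:122707239-122707488.
Pou5f1: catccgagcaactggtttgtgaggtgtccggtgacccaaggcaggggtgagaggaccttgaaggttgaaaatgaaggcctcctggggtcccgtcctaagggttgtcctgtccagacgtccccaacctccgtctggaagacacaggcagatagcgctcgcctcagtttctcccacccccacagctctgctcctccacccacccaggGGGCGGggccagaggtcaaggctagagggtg
Sox2: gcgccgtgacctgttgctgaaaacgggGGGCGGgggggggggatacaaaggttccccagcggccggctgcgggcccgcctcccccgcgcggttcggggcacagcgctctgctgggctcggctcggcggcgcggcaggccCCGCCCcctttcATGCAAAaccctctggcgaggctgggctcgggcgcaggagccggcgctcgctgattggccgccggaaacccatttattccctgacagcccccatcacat
Nanog: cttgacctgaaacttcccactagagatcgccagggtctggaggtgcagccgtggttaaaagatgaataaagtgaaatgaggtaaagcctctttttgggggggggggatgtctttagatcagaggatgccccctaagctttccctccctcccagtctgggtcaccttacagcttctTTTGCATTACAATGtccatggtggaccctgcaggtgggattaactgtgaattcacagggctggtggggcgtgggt
The Nanog window held the composite on the minus strand, at bases -75 to -62 from its start site. Of 32851 windows of 250 bases in the table, 2 held this composite (0.00609%), and both belong to Nanog, which has a pair of start sites. The Sox2 window held ATGCAAA at -99 to -93, a word found in 4.12% of all windows, and a GC box at -223 and at -111. The Pou5f1 window held a GC box at -45 to -40, found in 32.7% of all windows, and no match to the other 4 words. Another Pou5f1 window, at a start site inside the gene, held CATTGT at -158 to -153. CATTGT occurred in 10.7% of all windows and the octamer in 1.6%. A match describes letters, not binding.

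The libraries separated by replicate number far more than by group, as the labels number them 1 and 2 without saying what the number marks. In a limma fit with group and number as terms, 8920 of 14561 genes were called between number 2 and number 1 at an adjusted p under 0.05, whereas no gene was called between groups. The tests between groups use both numbers without a term for the number, so for the 10 genes each treated library is also set beside the control library of its own number. The reads behind the values, as worked out from their steps, totalled from 3658368 in control 2 to 20387031 in dd 2, with 6415126 in control 1. A count of 0 allows up to 3 reads, which on 1 kilobase of transcript is 0.82 FPKM in control 2 and 0.147 FPKM in dd 2 (counting error only). Of 10 stem cell markers all passed the filter, with a summed level of 1001 to 1469 FPKM in number 1 and 6513 to 9263 FPKM in number 2, where Dppa5a made up most of it. Of 10 fibroblast feeder markers 1 passed the filter, with a sum of 0.490 to 0.824 FPKM in number 1 and 2.68 to 9.52 FPKM in number 2. None of the markers of any list was at 0 in all libraries.

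**Figure D1:**
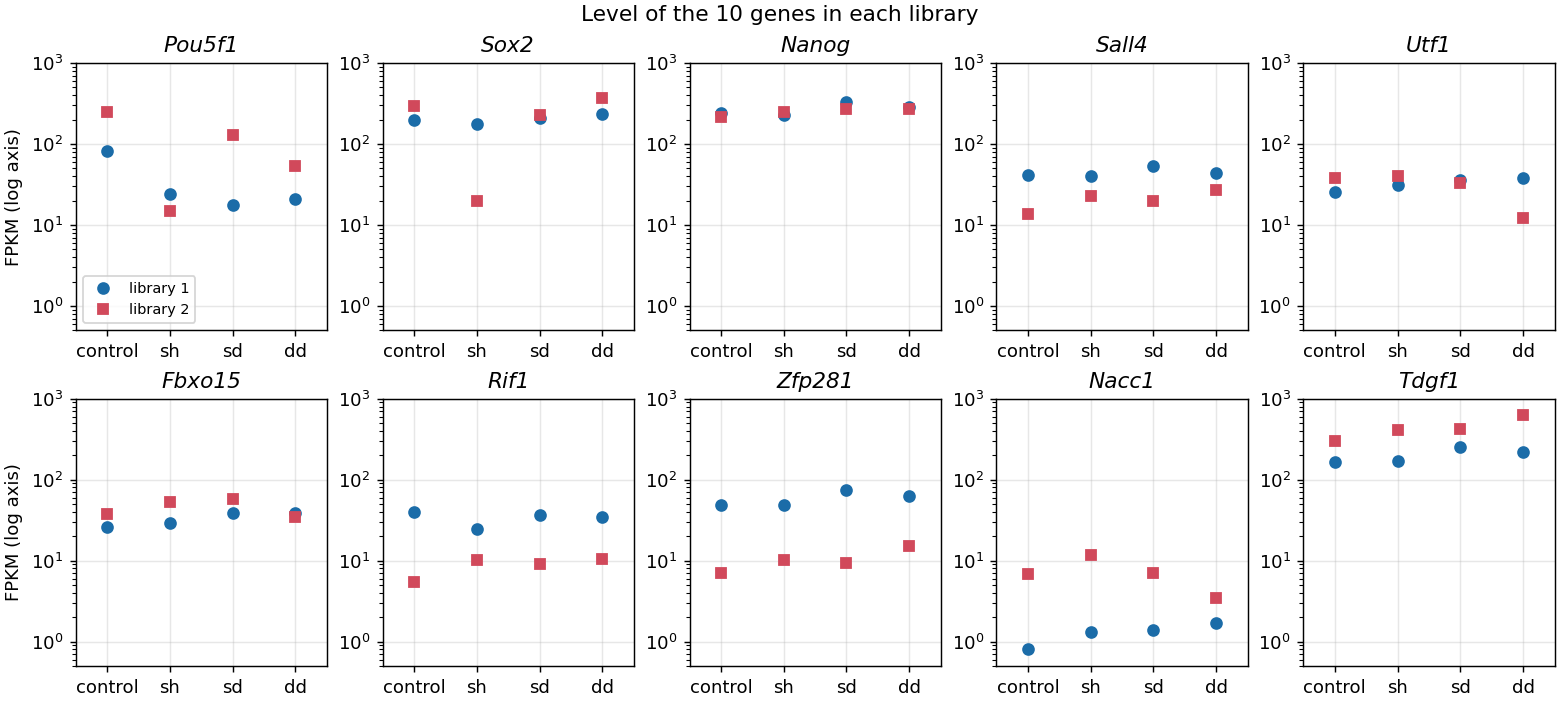
FPKM (log axis) of each of the 10 genes in the 4 groups, with 1 point per library; blue circles are libraries numbered 1 and red squares those numbered 2. Pou5f1 is lower in the treated libraries of each number, from 14.7 to 130 FPKM against 83.1 and 251.1 FPKM in control, Nanog stays between 215 and 335 FPKM, and Rif1, Zfp281 and Nacc1 part by number.

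Pou5f1 was the 1 core factor that was lower in all 6 treated libraries than in its same-number control. Sox2 was low in a single library, sh 2, and Nanog lay within a narrow range of FPKM. No gene of the 10 was called by limma between any treated group and control, nor for the mean of the 3 treatments or in the F test over them. Each of these 5 tests called 0% of the 14561 genes (0 genes, adjusted p = 1 for all 10 members), and at an unadjusted p under 0.05 they held 32 genes for sh, 50 for sd, 83 for dd, 105 for the mean and 22 for the F test. Of the 10 genes, Pou5f1 in sh alone was under that unadjusted level (0.0397 in limma) in these fits, which hold no term for the number. The split by number is thus part of their spread: the SE of Pou5f1 in sh was 1.12, and 0.66 with that term. With the term, 0 genes were again called, and 480 genes for sh, 945 for sd, 1310 for dd, 1300 for the mean and 574 for the F test were under the unadjusted level.

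Pou5f1 encodes the POU factor Oct4 (ENSMUSG00000024406, chromosome 17, 35506018 to 35510772, GRCm38). It had 83.1 FPKM in control 1 and 251.1 FPKM in control 2. The treated libraries had 24.2 and 14.7 FPKM in sh 1 and sh 2, 17.8 and 130 FPKM in sd 1 and sd 2, and 21 and 53.1 FPKM in dd 1 and dd 2. The sh and dd libraries were all below both control libraries, and sd 2 lay between the control libraries. Relative to the control of its number, Pou5f1 was at 29.1% in sh 1, 21.5% in sd 1 and 25.3% in dd 1, a narrow range. In number 2 the values spread further, from 5.87% in sh 2 to 51.7% in sd 2, with 21.2% in dd 2. With the reads of a pseudogene copy, Gm5712, added (described further on), sh 2 was at 20%. Counting error was small beside these differences: sh 2 rested on 463 reads, with an exact 95% Poisson interval of 13.4 to 16.2 FPKM, and control 2 on 2065 reads, with 240 to 262 FPKM.

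On the log2(FPKM + 1) scale, the difference of Pou5f1 from control was -2.87 for sh, -1.55 for sd and -2.08 for dd (SE 1.12 each). The mean of the treated groups differed by -2.17 (SE 0.92, limma adjusted p = 1 for this and each group). Under all alternatives run the sign held, with -3.66 to -2.08 for sh, -2.95 to -0.15 for sd and -2.87 to -1.28 for dd. Some of these, such as other filters, leave the difference unchanged by construction. Control 2 was the shallowest library, and the control pair is shared by all 3 comparisons. Without control 2 the mean difference was -1.37 and without control 1 it was -2.96. Without sd 1, which leaves sd 2 against both control libraries, the sd difference was -0.15, and without sd 2 it was -2.95.

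Sox2, the HMG-box partner of Oct4 (ENSMUSG00000074637, chromosome 3, 34650405 to 34652461), had 200 FPKM in control 1 and 291 FPKM in control 2. It had 177 FPKM in sh 1 and 19.7 FPKM in sh 2. The sd libraries had 207 and 231 FPKM, and the dd libraries 235 and 371 FPKM. One library, sh 2, was thus at 6.78% of the control of its number (567 reads, interval 18.1 to 21.4 FPKM), and the other 5 treated libraries were at 79.4% to 128%. The log2 difference in sh was -2.00 (SE 1.08, limma adjusted p = 1), and without sh 2 it was -0.44. The same library held the lowest Pou5f1 value of the 8. Sox2 sits inside Sox2ot, a non-coding gene of the same orientation whose exons it does not share, and which had 0 to 0.637 FPKM.

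Nanog, the homeodomain factor of the core (ENSMUSG00000012396, chromosome 6, 122707489 to 122714633), had 243 and 215 FPKM in the control libraries. It had 230 and 247 FPKM in sh, 335 and 269 FPKM in sd, and 286 and 275 FPKM in dd. The highest of the 8 FPKM values, as deposited, was 1.56 times the lowest, the smallest such spread among the 10 genes. This depends on the scaling: number 2 differed from number 1 by -0.11 as deposited and by -1.36 with quantile normalization. Both sd and both dd libraries were above both control libraries, and the sh libraries overlapped them. Nanog differed from control by 0.06 in sh, by 0.39 in sd and by 0.30 in dd (SE 0.64 each), none called (limma adjusted p = 1). The sh value was -0.15 with median ratio scaling.

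**Figure D2:**
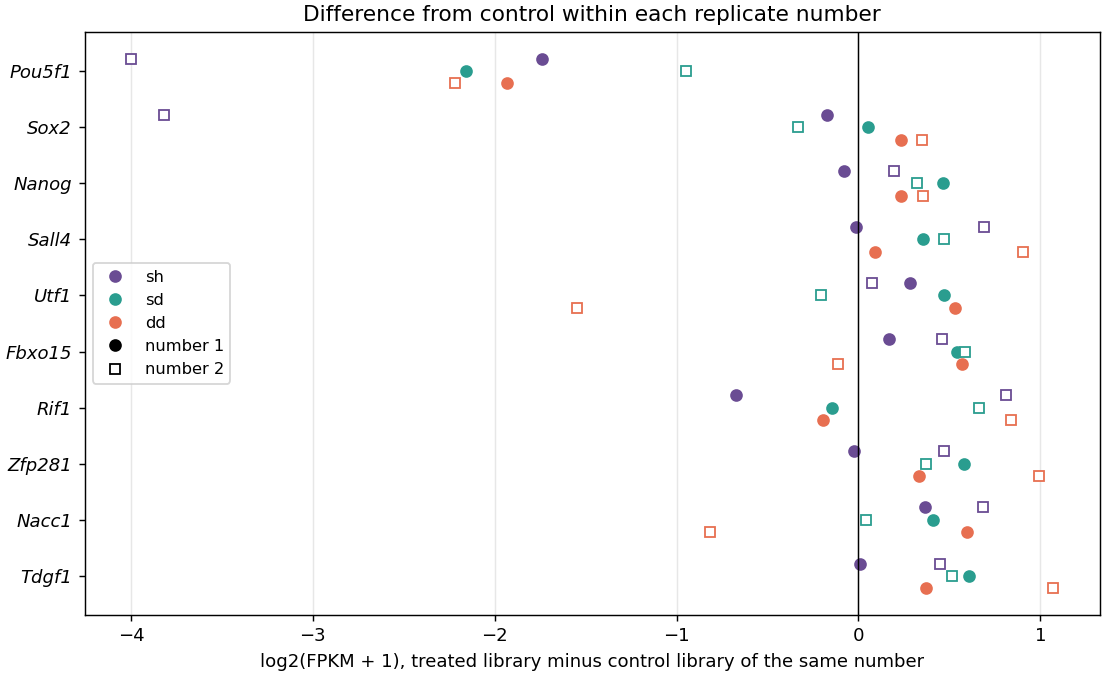
log2(FPKM + 1) of each treated library minus that of the control library with the same number, for the 10 genes; colour gives the treatment, filled circles number 1 and open squares number 2. All 6 Pou5f1 points lie left of 0, from -4.001 to -0.95, the sh 2 point of Sox2 lies at -3.82, and the Tdgf1 points lie at or right of 0, from 0.01 to 1.07.

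Ratios within a library do not depend on how that library was scaled. The ratio of Pou5f1 to Nanog was 34.2% in control 1 and 117% in control 2. It was 10.5% and 5.98% in the sh libraries, 5.32% and 48.3% in the sd libraries, and 7.36% and 19.3% in the dd libraries. Every treated library was below the control library of its number, and sd 2 was above control 1. The sh 2 ratios do not count the reads of Gm5712, the pseudogene copy of Pou5f1. The mean log2 ratio was -0.66 in control and -3.12 in the treated libraries, a difference of -2.46 (exact permutation test over the 28 arrangements of 2 against 6 libraries, two-sided p = 0.0714, adjusted over 3 ratios 0.214). The arrangements take no account of the number, and the smallest p they allow is 0.0357. Within number 1 alone, where the treated ratios were 5.32% to 10.5% against 34.2%, and within number 2 alone, there is 1 control library and no test. Without sd 2, the treated library above control 1, the difference was -2.876. The treated libraries left were then all below both control libraries, so the exact permutation p was the smallest allowed, 0.0476. This value was set by which library was left out, and nothing is drawn from it. Over the treated libraries left out in turn, the exact permutation p ran from 0.0476 to 0.143. The difference depended more on the controls: it was -1.576 without control 2, the shallowest library, and -3.347 without control 1. Each of these leaves 1 control library.

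The ratio of Pou5f1 to Sox2 was 41.6% and 86.2% in the control libraries. It was 13.6% and 74.7% in sh, 8.59% and 56.2% in sd, and 8.94% and 14.3% in dd. In sh 2 both genes were low, so this ratio was close to that of control 2. The difference in the mean log2 ratio was -1.59 (exact permutation p = 0.321, adjusted 0.393). The ratio of Sox2 to Nanog differed by -0.88 (exact permutation p = 0.393, adjusted 0.393), and by -0.31 without sh 2.

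**Figure D3:**
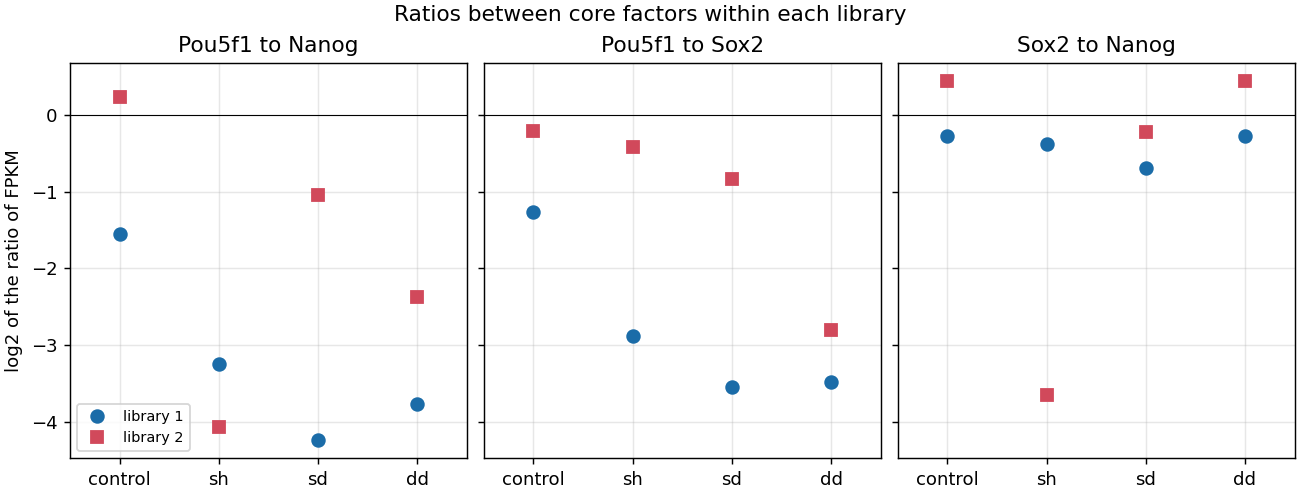
log2 of the ratio of FPKM between pairs of core factors in each library, by group; blue circles are libraries numbered 1 and red squares those numbered 2, and the line marks equal levels. The Pou5f1 to Nanog ratio lies at -1.55 and 0.22 in control and between -4.23 and -1.05 in the treated libraries, while the Sox2 to Nanog ratio stands apart in sh 2.

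Among the partners, Sall4 encodes a zinc finger factor that acts with Oct4 and Nanog (ENSMUSG00000027547, chromosome 2, 168748332 to 168767943). It had 41.2 and 13.9 FPKM in the control libraries, 40.8 and 23.0 FPKM in sh, 53.0 and 19.6 FPKM in sd, and 44.0 and 26.9 FPKM in dd. The number 1 library was higher than the number 2 library in every group, so treated and control libraries overlapped throughout. Within number 2 all 3 treated libraries were above control, at 141% to 194%, and within number 1 they were at 99.1% to 129%.

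Zfp281 encodes a zinc finger protein that recruits corepressors to the Nanog gene (ENSMUSG00000041483, chromosome 1, 136624901 to 136630053). It had 49.2 and 7.03 FPKM in control, 48.3 and 10.1 FPKM in sh, 74.0 and 9.40 FPKM in sd, and 62.1 and 14.97 FPKM in dd. The 4 number 1 libraries were at 48.3 to 74.0 FPKM and the 4 number 2 libraries at 7.03 to 14.97 FPKM. Both libraries of sd and of dd were above the control of their number, at 126% to 213%.

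Rif1 (ENSMUSG00000036202, chromosome 2, 52072832 to 52122383) had 40.1 and 5.44 FPKM in control, 24.8 and 10.3 FPKM in sh, 36.1 and 9.18 FPKM in sd, and 35.0 and 10.5 FPKM in dd. It was lower than control in all 3 treated libraries of number 1, at 61.8% to 90.1%, and higher in all 3 of number 2, at 169% to 194%. The direction thus went with the number in each treatment. The mean of the treated groups differed from control by 0.22 (SE 0.96, limma adjusted p = 1), and by -0.004 with median ratio scaling.

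Nacc1 encodes Nac1, a BTB-domain corepressor that binds Nanog and Oct4 (ENSMUSG00000001910, chromosome 8, 84670483 to 84687862). It was the lowest of the 10 genes in number 1, with 0.801 FPKM in control 1 (22 reads, exact 95% Poisson interval 0.502 to 1.21), 1.32 in sh 1, 1.39 in sd 1 and 1.72 in dd 1. In number 2 it had 6.84 FPKM in untreated cells, 11.6 after sh, 7.06 after sd and 3.45 after dd. All 3 treated libraries of number 1 were above control, and dd 2 was at 50.5% of its control, so dd had no single direction.

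Of the stem cell targets, Utf1 encodes a chromatin-bound factor of undifferentiated cells (ENSMUSG00000047751, chromosome 7, 139943789 to 139945112). It had 25.8 and 38.1 FPKM in control, 31.6 and 40.1 FPKM in sh, 36.1 and 32.9 FPKM in sd, and 37.7 and 12.4 FPKM in dd. A single library stood low, dd 2, at 32.4% of its control, and the other 7 values lay between 25.8 and 40.1 FPKM. The dd difference was -0.51 (SE 0.71, limma adjusted p = 1), and 0.26 without dd 2.

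Fbxo15, an F-box gene long used as an Oct4 and Sox2 reporter locus (ENSMUSG00000034391), had 26.2 and 38.0 FPKM in control, 29.5 and 52.7 FPKM in sh, 38.5 and 57.5 FPKM in sd, and 39.3 and 35.0 FPKM in dd. Both sd libraries were above both control libraries, by 0.56 on the log2 scale (SE 0.63, limma adjusted p = 1). Of the 6 treated libraries, dd 2 alone was below the control of its number, at 92.2%.

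Tdgf1 encodes Cripto, the cell-surface co-receptor of Nodal (ENSMUSG00000032494, chromosome 9, 110939603 to 110946158). It had 167 and 297 FPKM in control, 169 and 406 FPKM in sh, 255 and 425 FPKM in sd, and 217 and 626 FPKM in dd. It was the 1 gene of the 10 at or above its control in all 6 treated libraries, with sh 1 level at 100.8% of control and dd 2 highest at 211%. The mean of the treated groups differed from control by 0.50 (SE 0.73, limma adjusted p = 1).

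The directions of the 10 genes were counted beside those of all genes tested. In sh, 2 of 10 (Pou5f1 and Sox2) were below control in both numbers, against 10.6% of all genes, and 4 of 10 (Utf1, Fbxo15, Nacc1 and Tdgf1) were above, against 35.2%. In sd, 1 of 10 (Pou5f1) was below, against 12.7%, and 6 of 10 (Nanog, Sall4, Fbxo15, Zfp281, Nacc1 and Tdgf1) were above, against 37.5%. Nacc1 in sd 2 was at 103% of its control, and at 97.7% with the reads of its pseudogene copy added (described further on). In dd, 1 of 10 (Pou5f1) was below, against 15.1%, and 5 of 10 (Sox2, Nanog, Sall4, Zfp281 and Tdgf1) were above, against 31%. Below the control of its number in all 6 treated libraries was 1 of 10, Pou5f1, against 3.66% of all genes, and above it in all 6 was 1 of 10, Tdgf1, against 15%. The counts above control lay within 3 genes of what these background shares give for 10 genes.

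Counted by libraries that did not overlap, both sh libraries were below both control libraries for 2 of 10 genes (Pou5f1 and Sox2, background 2.13%) and above them for 0 of 10 (background 8.4%). Both sd libraries were below for 0 of 10 (background 2.69%) and above for 2 of 10, Nanog and Fbxo15 (background 11.1%). For Fbxo15, sd 1 and control 2 lay within counting error of each other. Both dd libraries were below for 1 of 10, Pou5f1 (background 4.72%), and above for 1 of 10, Nanog (background 11.2%). The median log2 difference of the 10 genes was 0.20 in sh, 0.33 in sd and 0.29 in dd, beside 0.15, 0.17 and 0.06 for all genes tested. Median ratio scaling moved the median of all genes to -0.01 in sh, -0.02 in sd and -0.05 in dd. Relative to the median of all genes, Pou5f1 stood at -3.02 in sh, -1.72 in sd and -2.13 in dd, and Nanog at -0.09, 0.22 and 0.24.

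Levels between genes were compared in FPKM, which is per length, although the split by number described next differs with length. The level was highest for Tdgf1 (median of the 8 libraries 276 FPKM), Nanog (258) and Sox2 (219). Pou5f1 (38.6), Fbxo15 (38.3), Utf1 (34.5), Sall4 (33.8) and Zfp281 (31.7) followed, then Rif1 (17.7) and Nacc1 (2.59). The ranges of each gene and its neighbour in this order overlapped. The top place went with the number: Nanog had rank 1 in all 4 number 1 libraries and Tdgf1 in all 4 of number 2. Pou5f1 had rank 4 in control 1 and rank 9 in each treated library of number 1. In number 2 it had rank 3 in control, rank 7 in sh and rank 4 in sd and in dd.

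The replicate number moved with the level of 6 of the 10 genes. In the limma fit with group and number as terms, Nacc1 was higher in number 2 by 1.76 (SE 0.33, adjusted p = 0.00177), Tdgf1 by 1.09 (SE 0.22, adjusted p = 0.00226) and Pou5f1 by 1.25 (SE 0.47, adjusted p = 0.0417). Zfp281 was lower in number 2, with -2.41 (SE 0.25, adjusted p = 6.12e-05), as were Rif1 with -1.84 (SE 0.29, adjusted p = 6.39e-04) and Sall4 with -1.10 (SE 0.25, adjusted p = 0.00469). Of all genes tested, 46.6% were called higher and 14.6% lower in number 2, so 3 of 10 genes were called on each side. Under quantile normalization 4015 genes were called higher and 4343 lower, against 6787 and 2133. Tdgf1 then stood at -0.17 and was not called, and Pou5f1 stood at 0.52 and was not called. The Pou5f1 call was lost in 10 of 16 alternatives, and its sh libraries went the other way, with 24.2 FPKM in sh 1 and 14.7 FPKM in sh 2. Nacc1, Zfp281, Rif1 and Sall4 kept their direction and their call under all alternatives in which they were tested.

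The 3 genes called lower in number 2 were the longest of the 10 and those called higher were shorter, an order also present over all coding genes. The median difference over coding genes was 1.27 for exon lengths up to 1500 bases, 0.93 for 1501 to 2500, 0.58 for 2501 to 3500, 0.34 for 3501 to 5000 and -0.14 above 5000. Rif1 has 10504 bases of exon, Sall4 5536, Zfp281 4937 and Nacc1 4300, and the other 6 genes have 1227 to 3360. Zfp281 (25th to 75th percentile of its length class -0.46 to 1.06) and Rif1 and Sall4 (-0.83 to 0.53) lay below the middle range of genes of their length, and Nacc1 above it. Of the genes not called, Utf1 also lay below it, at -0.195 against a 25th percentile of 0.465. So did Sox2, at -0.437, and Nanog, at -0.112, against a 25th percentile of 0.038. GC content moved with the difference too, from a median of -0.44 for coding genes up to 42% GC to 1.04 for those above 54%. By GC, Rif1 has 39.3% and Zfp281 43.1%, against 57.7% in Nacc1 and 57.6% in Pou5f1. Sall4, lower in number 2, has 53.8% GC, and Tdgf1, higher in number 2, has 45.3%, so these did not follow that order. Nor did Utf1, which has the highest GC of the 10 genes, 63.5%, and stood at -0.195, not called. Length and GC differ between the genes together, and their part in the difference was not tested.

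**Figure D4:**
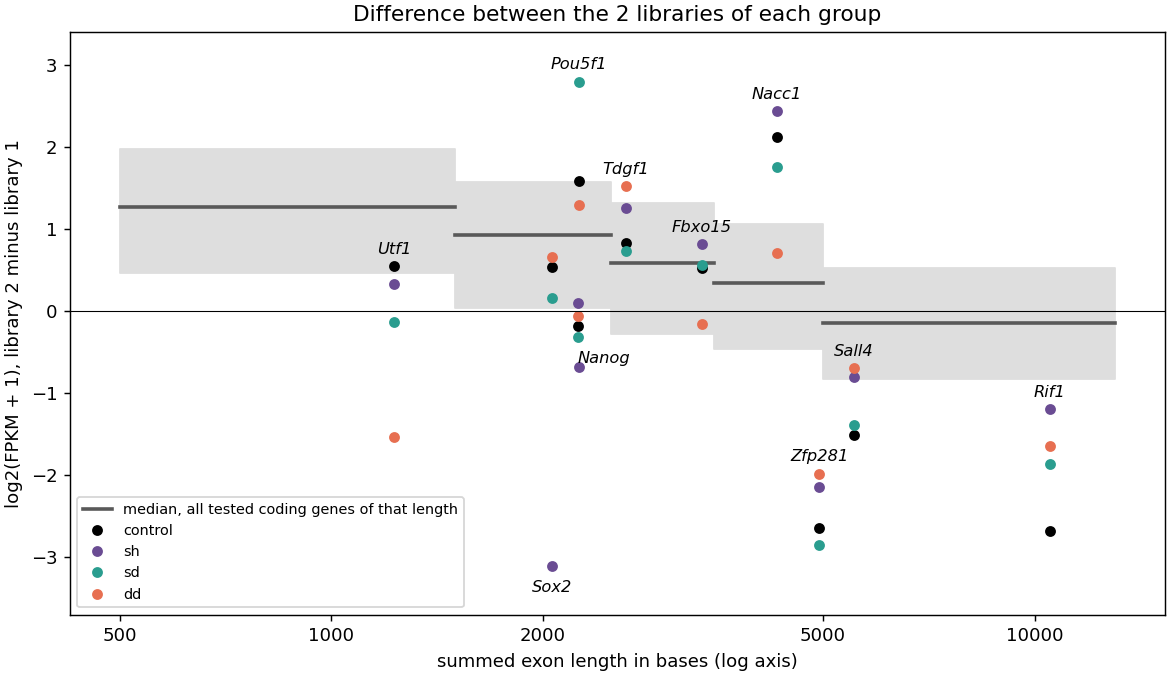
Difference in log2(FPKM + 1) between library 2 and library 1 of each group (points, coloured by group) against summed exon length (log axis), for the 10 genes; grey lines and boxes give the median and the 25th to 75th percentile of all tested coding genes in 5 length classes. Zfp281 and Rif1 lie below 0 in all 4 groups, Nacc1 lies above 0 in all 4, and the grey median runs from 1.27 in the shortest class to -0.14 in the longest.

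Pseudogene copies of 4 of the 10 genes had values almost only in the libraries numbered 2. These copies were chosen as the processed pseudogenes that hold at least 3% of the 31-base stretches of one of the 10 genes, after their values were seen. Gm5712, on chromosome 3 (129433673 to 129434715), shares 3.7% of the stretches of Pou5f1 and had 0 to 0.35 FPKM in number 1. In number 2 it had 86.0 FPKM in untreated cells, 93.7 after sh, 73.7 after sd and 14.6 after dd. In sh 2 its FPKM was thus 635% of that of Pou5f1 itself, against 34.2% in control 2. Tdgf1-ps1, which shares 12.5% of the stretches of Tdgf1, had 0.304 to 3.15 FPKM in number 1 and 79.4 to 352 FPKM in number 2. Nanog-ps1 and Gm15784, a copy of Nacc1 sharing 18.8% of its stretches, were at 0 reads in all 4 number 1 libraries and had 1.57 to 22.6 and 0.0671 to 1.68 FPKM in number 2. How the authors counted reads that fit several places is not given in the sources at hand, so reads could be split between a gene and its copy. Whether they were was not tested.

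Summing the reads of each gene and its copy, scaled to the total of each library, left the Pou5f1 difference in place and narrowed the gap of sh 2. The sum takes in all reads of the copy, and how many of them came from the gene was not tested. Set against control 1, the sum was at 29.1% for sh 1, 21.5% for sd 1 and 25.5% for dd 1. In number 2 it was at 20% in sh, where Pou5f1 alone was at 5.87%, and at 56.4% in sd and 20.6% in dd. Of the summed reads, the copy held 74.7% in sh 2, 20.8% in sd 2, 13.7% in control 2 and 11.3% in dd 2, and at most 0.767% in number 1. For Tdgf1 the sum was at 141%, 145% and 191% of control in sh 2, sd 2 and dd 2, close to 137%, 143% and 211% without the copy. For Nanog the copy held at most 1.01% of the sum. For Nacc1 the sum was at 161%, 97.7% and 46.9% of control in sh 2, sd 2 and dd 2, against 170%, 103% and 50.5% without the copy. The sd 2 value thus moved from above to below its control. Sox2 shared 0.9% of its stretches with other genes and had no copy past the 3% limit. Other overlaps were small: Gm19553, antisense to Pou5f1, and Gm14261, antisense to Sall4, had 0 to 3 reads in any library.

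**Figure D5:**
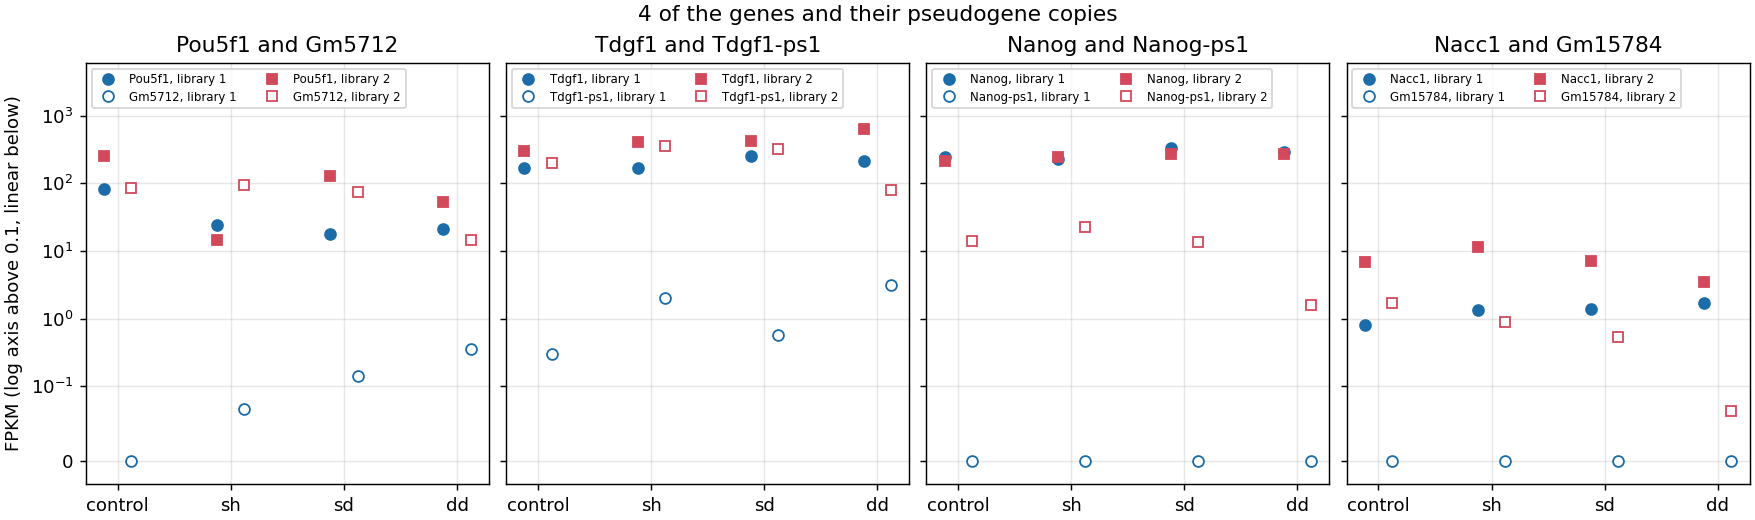
FPKM (log axis above 0.1, linear below) of Pou5f1, Tdgf1, Nanog and Nacc1 (filled) and of a processed pseudogene copy of each (open) in each library; blue circles are libraries numbered 1 and red squares those numbered 2. The copies lie at or near 0 in number 1, and in sh 2 the Pou5f1 copy, at 93.7 FPKM, lies above Pou5f1 at 14.7 FPKM.

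Genes whose 6 differences from control were most like those of a core factor were named among 3074 genes with a mean of at least 10 FPKM, by the root mean square distance on the log2 scale. Genes with predicted, clone or pseudogene symbols were left out. The nearest to Nanog were Mrpl22, a mitochondrial ribosomal protein gene, at 0.07, Ppp1r2, an inhibitor of protein phosphatase 1, at 0.08, and Hnrnpd, an RNA-binding protein gene, at 0.10. On this measure a gene with large differences lies far from most genes, so the distances of Pou5f1 and Nanog cannot be compared. Of the genes compared, none came near Pou5f1: the closest were the histone genes Hist1h2af at 1.27, Hist1h2ai at 1.28 and Hist1h2an at 1.34. These 3 had 1.59 to 2.34 FPKM in control 1 and 59.8 to 73.0 FPKM in control 2. Their treated libraries had 0.750 to 2.37 FPKM in number 1 and 6.01 to 19.9 FPKM in number 2, so the larger differences from control, -3.16 to -1.60, were those of number 2. For Sox2 the closest were Chchd2 at 1.01, Hist1h2ap at 1.08 and mt-Co1 at 1.10, none with a difference as far from 0 in sh 2 as the -3.82 of Sox2.

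Other genes of the same pathways, from lists chosen with earlier results of these data known, held no called gene in any treatment (0 in each of 5 lists, and 0 at an unadjusted p under 0.05). Of 19 classic targets of Oct4 and Sox2, all tested, 16 were higher than control and 3 lower in sh, 19 and 0 in sd, and 17 and 2 in dd. Their median difference was 0.19 in sh, 0.37 in sd and 0.37 in dd, beside 0.15, 0.17 and 0.06 for all genes. Of all genes tested, 65.5% were higher in sh, 62.9% in sd and 53.6% in dd. Within both numbers, 11 of the 19 targets were higher in sh, 12 in sd and 11 in dd, and 5 were higher in all 6 treated libraries. The shares of all genes tested were 35.2% in sh, 37.5% in sd, 31% in dd and 15% in all 6. Within both numbers 0 targets were lower in sh, 0 in sd and 2 in dd, beside 10.6%, 12.7% and 15.1% of all genes tested. Dppa5a, an RNA-binding protein gene and the most abundant target, had 292 FPKM in control 1 and 373 to 557 in the treated libraries of number 1. In number 2 it had 7286 FPKM in control and 5866 to 8584 in the treated libraries. Spp1, which encodes osteopontin, had 215 FPKM in control 1 and 280 in control 2, and all 6 treated libraries were above the control of their number, with dd 2 highest at 811 FPKM.

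Of 26 protein partners of Oct4, Sox2 and Nanog, 25 passed the filter, and 21 were higher and 4 lower in sh, 18 and 7 in sd, and 14 and 11 in dd, beside the same shares over all genes. Within both numbers 15 were higher in sh, 15 in sd and 7 in dd, and 7 were higher in all 6 treated libraries. Over all genes tested these shares were 35.2%, 37.5%, 31% and 15%. The most abundant were Zfp42, which encodes Rex1, with 132 to 372 FPKM, and L1td1, an RNA-binding protein gene, with 42.7 to 198 FPKM. Of 15 genes around Tdgf1 in Nodal signalling, 10 were higher and 5 lower in sh, 11 and 4 in sd, and 7 and 8 in dd. Lefty2, a secreted Nodal inhibitor, had 46.9 and 51.6 FPKM in control and 30.5 to 87.6 FPKM in the treated libraries. Skil, a repressor of Smad signalling, had 239 to 460 FPKM in number 1 and 2.43 to 4.08 FPKM in number 2, a larger split than that of any of the 10 genes.

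Of 12 genes that work with Rif1, 8 passed the filter, with 3 higher and 5 lower in sh, 5 and 3 in sd, and 4 and 4 in dd. The phosphatase subunit genes Ppp1cb and Ppp1cc were the most abundant, and Ppp1cb had 386 to 754 FPKM in number 1 and 9.64 to 18.0 FPKM in number 2. Of 6 ubiquitin ligase and corepressor genes around Fbxo15 and Nacc1, 5 were higher and 1 lower in sh, 2 and 4 in sd, and 3 and 3 in dd. Skp1a, the Skp1 adaptor that F-box proteins bind, had 226 to 606 FPKM in number 1 and 51.5 to 82.8 FPKM in number 2, and Cul3, the ligase scaffold for BTB proteins, 8.64 to 28.2 FPKM over all libraries.

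Markers of lineages that low or high Oct4 is known for were read beside the Pou5f1 values, with 10 genes a list. The summed trophoblast markers, of which 4 passed the filter, were at 15.6 FPKM in control 1 and 13.0 to 13.8 in the treated libraries of number 1, and at 23.6 in control 2 and 16.3 to 23.5 in those of number 2. The primitive endoderm markers, of which 9 passed, were at 29.1 FPKM in control 1 and 27.8 to 41.5 in the treated libraries of number 1, and at 14.99 in control 2 and 2.61 to 7.91 in those of number 2. The mesoderm and streak markers, of which 1 passed, were at 2.69 FPKM in control 1 and 0.217 to 3.82 in the treated libraries, and at 25.2 in control 2 and 5.18 to 12.5. The trophoblast sum was below control in all 6 treated libraries, by little in sd 2 (23.5 against 23.6 FPKM). Its most abundant gene, Tfap2c, went the other way, with 5.25 FPKM in control 1 and 7.42 to 10.7 in the treated libraries of number 1, and 9.21 in control 2 and 10.8 to 15.1 in those of number 2. The neuroectoderm sum, with 2 of 10 passing, was at 5.76 FPKM in control 1 and higher, at 8.19 to 10.9, in the treated libraries of number 1. It was at 18.9 FPKM in control 2 and lower, at 5.46 to 13.6, in those of number 2. Of 9 formative and primed markers 6 passed, with a sum of 27.6 FPKM in control 1 and 34.7 to 46.02 in the treated libraries of number 1, and 25.02 in control 2 and 16.4 to 19.5 in those of number 2. Their part in the Pou5f1 values was not tested.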

How the data were processed

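Total RNA of 8 mESC libraries was made into Illumina libraries, per the labels' protocols. FPKM per gene is the unit in the table the authors deposited, per the file headers. CASAVA 1.4, HISAT2 and mm10 are listed in the submitters' processing notes. Counter, annotation and strand setting: not given in the sources used here. Of 58420 rows, 52338 had values, and 52081 of these matched a GENCODE M21 gene (GRCm38).

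FPKM times exon length fell within 0.02 of a whole number of reads in 98.3% to 98.9% of values below 100 reads, which gave reads and depth per library (intervals cover counting error only).

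Tests used limma 3.58.1 (R 4.3.3) on log2(FPKM + 1), a scale that understates changes of low genes, over the 14561 genes with a mean of at least 1 FPKM. All 4 groups were fitted together with a trended eBayes, two-sided p and Benjamini-Hochberg adjustment per contrast at 0.05. It was tested on simulated data. Exact permutation tests went through every arrangement of the libraries, and the Poisson intervals used SciPy 1.17.1. Named were the 10 genes, the 2 most abundant genes of each list, called genes, and the 3 genes most like each core factor. The genes and lists were chosen with earlier results of these data known. The number contrast, the Sox2 to Nanog ratio and the pseudogene sums were added after seeing the data. Alternatives were other pseudocounts, filters and scalings, only the groups compared, robust moderation, voom weights on recovered reads, the number as a block, and leaving out each library.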

Additional observations from a re-analysis of the deposited data

How the results depend on the processing

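No result against control was called under any of the 19 alternatives for sh, sd and dd or the 18 for the treated mean and F test (0 genes each, 2 to 1383 unadjusted). Of 746 values of the 10 genes against control under an alternative, 57 changed sign. The cause was not tested, and none was called. Without a filter, or with mean FPKM of at least 5 (Nacc1 not tested), the differences stay the same by construction, so no sign could change. The same holds for robust moderation, only the groups compared, and leaving out a library of a group not compared. It also holds for the number as a block without voom weights. The 746 values include these. Leaving out 1 library sets unequal numbers against each other, and the log2 differences then ran, in sh Nanog -0.028 to 0.15, Sall4 -0.41 to 1.09, Utf1 -0.10 to 0.45, Fbxo15 -0.094 to 0.72, Rif1 -1.27 to 1.41, Zfp281 -1.10 to 1.54, Nacc1 -0.69 to 1.75, Tdgf1 -0.40 to 0.86. They ran, in sd Sox2 -0.41 to 0.13, Sall4 -0.34 to 1.16, Utf1 -0.14 to 0.41, Rif1 -1.08 to 1.59, Zfp281 -0.95 to 1.90, Nacc1 -0.84 to 1.28. They ran, in dd Sox2 -0.036 to 0.62, Sall4 -0.25 to 1.25, Utf1 -1.28 to 0.26, Fbxo15 -0.034 to 0.49, Rif1 -1.01 to 1.66, Zfp281 -0.66 to 1.98, Nacc1 -1.17 to 0.95, Tdgf1 -0.042 to 1.49. They ran, in the treated mean Sall4 -0.34 to 1.17, Utf1 -0.34 to 0.21, Rif1 -1.12 to 1.55, Zfp281 -0.87 to 1.77, Nacc1 -0.85 to 1.27. Without each library in turn, the number difference ran from -0.80 to 0.45 for Sox2 and from -0.44 to 0.25 for Utf1, and the log2 ratio of Pou5f1 to Nanog from -3.347 to -1.576. With median ratio scaling, Nanog was -0.15, Utf1 -0.026 and Rif1 -0.139 in sh, Utf1 -0.131 and Rif1 -0.019 in sd, and Rif1 -0.004 in the treated mean. With quantile normalization Rif1 was -0.051 in sh. Nacc1 in dd was 0.024 with a pseudocount of 0.1 and 0.374 with voom weights. The number difference of Fbxo15 was -0.155 with quantile normalization and -0.133 with median ratio scaling, and that of Tdgf1 was -0.173 and 0.504, not called. The number call of Pou5f1 was lost in 10 of 16 alternatives. With mean FPKM of at least 5, 5368 of 7503 genes were called by number, where fewer genes were tested.

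The labels do not say what the replicate number marks. Same-numbered libraries deviated together (r of the deviations from the group means 0.75 to 0.893), but with 2 numbers the check cannot pair them. A fit with a replicate block (residual degrees of freedom: 3) called 0 genes in each contrast, with 480 at an unadjusted p under 0.05 in sh, 945 in sd, 1310 in dd, 1300 for the mean and 574 in the F test. Pou5f1 then had a limma adjusted p of 0.999 in sh, 0.723 in sd, 0.553 in dd and 0.55 for the mean, the differences unchanged. Its unadjusted limma p was 0.00179, 0.0426, 0.0116 and 0.00293 there and 0.0109 in the F test, and Sox2 in sh (0.0301) and Tdgf1 in dd (0.0414) were also under 0.05 before adjustment. With voom weights and the replicate block, Rif1 was -0.187 in sh and -0.018 in the mean, and Utf1 0.002 in the mean. Depth limits Nacc1 most, at 22 reads in control 1.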
